A study of Mus musculus with 6 samples.

Results

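Hemostasis and fibrinolysis genes were followed in the mouse aortic valve as a set of 9 genes, chosen by symbol, among the 46983 genes that the gene table lists. They are F3, Tfpi and Tfpi2, which start or restrain coagulation, Thbd and Procr, which serve the protein C system, Vwf, the adhesive protein of the vessel wall, and Plat, Plau and Plaur, the activators of plasminogen and the receptor of one of them. The choice was made by symbol with no cutoff on values, though with earlier results of these data known. All 9 passed the filter on low values. Aortic valves of wild type C57BL/6J mice were taken untreated at postnatal day 2 (PND2) or at an age of 4 months, and the 2 ages were compared. Each age had 3 libraries labelled as biological replicates, and each library was made from the pooled valves of 5 to 6 mice, so that the spread between libraries is a spread between pools. The comparison asks how the transcripts of these genes in the newborn valve differ from those in the adult valve.

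Blood flowing over a heart valve meets an endothelial layer that keeps clotting in check. Tissue factor, encoded by F3, is held by cells beneath the endothelium and starts coagulation when it meets blood, and the inhibitor encoded by Tfpi blocks that first step. Thrombomodulin turns thrombin from a clotting enzyme into an activator of protein C, while tissue plasminogen activator and urokinase turn plasminogen into plasmin, the enzyme that dissolves fibrin.

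Library totals recovered from the deposited values ran from 23810507 to 38994657, and correlations of log2 values were 0.961 to 0.970 within an age and 0.911 to 0.922 between ages. Values are RPKM (reads per kilobase of exon scaled to the library total), a unit per length. For a gene, the length is its whole annotated exonic length. The order of different genes and the ratios between them therefore depend on the annotation. Log2 fold changes (4 months minus PND2) are differences of mean log2(RPKM + 0.1), tested with limma over 25903 genes, and a gene was called at a Benjamini-Hochberg adjusted p under 0.05. Over all genes tested, 35.8% were called, 14.7% as higher and 21.1% as lower in the adult valve, and the median over all of them was -0.14. With each library scaled by its median, that median became -0.02 and the split of calls turned from 3810 higher and 5463 lower to 4601 higher and 4129 lower. Xist, expressed from the inactive X chromosome of females, ranged from 0.0457 to 108.6 RPKM at PND2 and from 0.154 to 109.9 at 4 months. The pools therefore differed in sex within each age, and the labels give no sex. In these whole-tissue samples, fewer cells of a type and less RNA per cell cannot be told apart.

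Of the 9 genes, 6 were called, against a background of 35.8%. F3, Thbd and Plat rose, and Tfpi, Tfpi2 and Vwf fell. Procr, Plau and Plaur did not pass the test. For 7 of the 9 no newborn value fell within the adult range or the reverse, against 50.0% of all genes tested, and the median log2 fold change of the 9 was -0.31. With each library scaled by its median, the counts stayed at 3 higher and 3 lower.

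Promoter windows are shown here for the genes with the steepest changes, to be read beside their levels. Reference windows from RefSeq (build GRCm38, 250 bases before and 50 bases after an annotated start, written 5′ to 3′ on the gene's strand) were found for 5 of the 9 genes, and for Vwf, Thbd, Plat and Plau none was in the table. Capitals mark matches to TGANTCA on either strand, the letters bound by AP-1, the dimer of Fos and Jun proteins. The F3 window lies at chr3:121723287-121723586 (plus strand), the Tfpi2 window at chr6:3968326-3968625 (minus strand), and the downstream and upstream Tfpi windows at chr2:84474125-84474424 and chr2:84476710-84477009 (minus strand).
F3: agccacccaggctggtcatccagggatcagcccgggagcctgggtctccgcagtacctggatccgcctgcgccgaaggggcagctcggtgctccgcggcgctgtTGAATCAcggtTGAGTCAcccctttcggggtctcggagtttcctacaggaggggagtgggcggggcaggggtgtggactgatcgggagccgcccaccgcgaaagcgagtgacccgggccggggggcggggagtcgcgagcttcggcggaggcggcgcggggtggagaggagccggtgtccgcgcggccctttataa
Tfpi2: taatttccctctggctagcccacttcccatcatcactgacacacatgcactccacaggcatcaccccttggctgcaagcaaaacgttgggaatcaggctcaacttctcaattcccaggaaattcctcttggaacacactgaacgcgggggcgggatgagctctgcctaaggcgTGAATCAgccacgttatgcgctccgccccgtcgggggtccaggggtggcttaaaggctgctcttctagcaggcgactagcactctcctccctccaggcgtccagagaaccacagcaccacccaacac
Tfpi downstream start: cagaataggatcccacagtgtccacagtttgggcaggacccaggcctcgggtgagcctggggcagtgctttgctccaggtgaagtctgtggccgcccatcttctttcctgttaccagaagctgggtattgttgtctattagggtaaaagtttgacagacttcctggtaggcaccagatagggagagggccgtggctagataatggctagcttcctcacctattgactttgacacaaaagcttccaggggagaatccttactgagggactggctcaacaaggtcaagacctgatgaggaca
Tfpi upstream start: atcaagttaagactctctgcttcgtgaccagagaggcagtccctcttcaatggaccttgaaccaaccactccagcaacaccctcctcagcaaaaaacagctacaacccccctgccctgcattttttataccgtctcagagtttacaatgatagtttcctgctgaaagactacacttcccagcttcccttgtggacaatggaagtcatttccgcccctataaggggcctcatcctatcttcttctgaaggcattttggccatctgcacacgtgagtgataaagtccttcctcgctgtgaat

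The F3 window held 2 such matches, starting at positions 105 and 116 counted from the window's first base, and the Tfpi2 window shown held 1, at position 174. The other 2 Tfpi2 windows, at chr6:3988809-3989108 and chr6:3988887-3989186, overlap each other and held no match to TGANTCA or GGGCGG, and neither Tfpi window held a match to TGANTCA. Procr and Plaur windows, not shown, also held 1 match each, at positions 97 and 182, so that 4 of the 8 windows of these genes had a match, and 7.81% of 32851 windows of the same length did. The 4 windows belong to 4 of the 5 genes. F3 rose, Tfpi2 fell and the other 2 genes did not pass the test, so the matches did not go with one direction. GGGCGG, the GC box, occurred 3 times in the F3 window, 2 times in the Tfpi2 window shown and 1 time in each Tfpi window, and 35.7% of all windows held it on either strand. CACCC, a core of KLF binding sites, occurred 4 times in the F3 window, 3 times in the Tfpi2 window shown and 1 time in each Tfpi window, and 57.5% of all windows held it. In the F3 window the CACCC match at position 121 shares bases with the second AP-1 match. A match is a stretch of letters and does not show that a factor bound there.

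F3, the gene for tissue factor (ENSMUSG00000028128, chr3:121723537-121735048, mm10), had the steepest rise of the 9. At PND2 its 3 libraries held 7.32, 5.13 and 5.77 RPKM, and at 4 months 42.4, 33.4 and 31.3. Every adult library was above every newborn library. The mean rose 5.88-fold, from 6.08 ± 1.12 to 35.7 ± 5.93 RPKM (SD, n = 3), a log2 fold change of 2.54 ± 0.17 (SE, 95% interval 2.13 to 2.95, limma adjusted p = 0.000114). In the order of gene RPKM F3 moved from the eighth of the 9 genes to the third. At PND2 its values overlapped those of its neighbours Plau and Tfpi2, and at 4 months they lay apart from those of Thbd above and Procr below.

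The tested exons of F3 all rose. Exon values were tested over 299098 exons with an exon RPKM of at least 1 in 3 libraries, of which 23.1% were called. For F3, 13 of 14 listed exons were tested and all 13 rose, by log2 2.19 to 3.06. Several listed exons of a gene cover the same bases, so exon counts are not independent measurements. The remaining exon held at most 5 reads in any library.

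**Figure D1:**
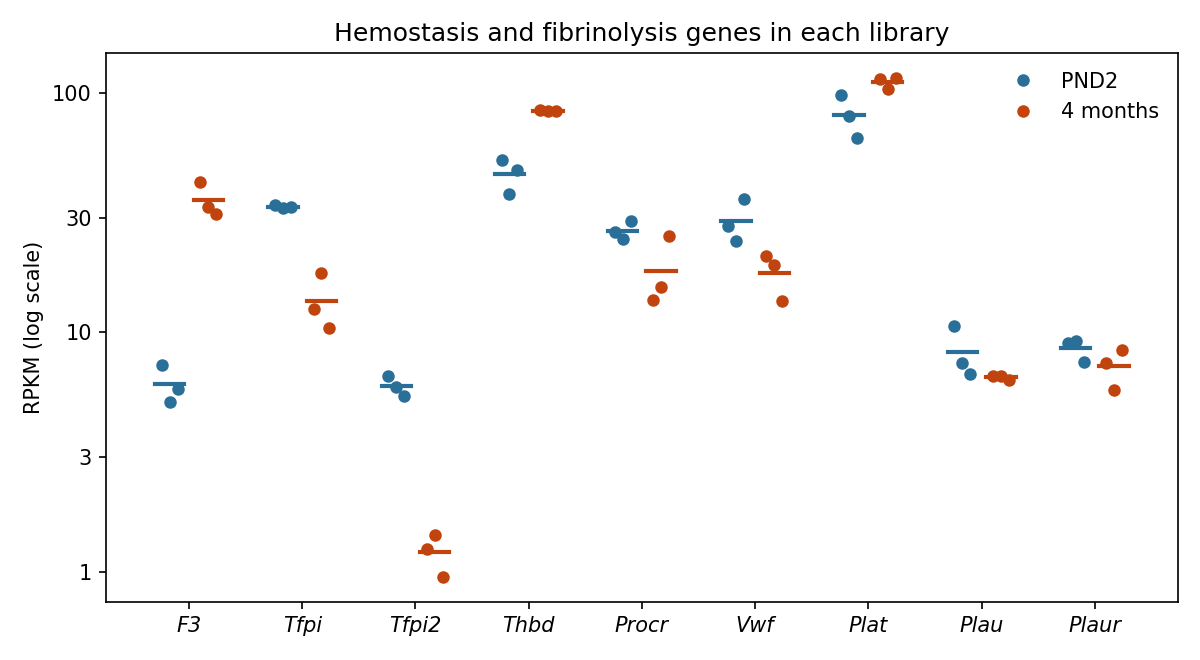
RPKM of the 9 genes in each library on a log axis, with PND2 in blue, 4 months in red, and a bar at the mean of the 3 libraries. F3 and Thbd lie higher and Tfpi and Tfpi2 lower at 4 months without overlap, while Procr and Plaur overlap between the ages.

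Tfpi, the gene for tissue factor pathway inhibitor (ENSMUSG00000027082, chr2:84432855-84476775), moved the other way. Its newborn libraries held 34.1, 33.1 and 33.4 RPKM, and its adult libraries 12.5, 17.7 and 10.4. The newborn values were nearly equal, and the adult values, although spread more widely, all lay below them. The mean fell 2.48-fold, from 33.6 ± 0.506 to 13.5 ± 3.75 RPKM (SD, n = 3), with a log2 fold change of -1.34 ± 0.19 (SE, 95% interval -1.78 to -0.90, limma adjusted p = 0.00185). Under the study's own kind of test, a separate unequal-variance test per gene with the same adjustment, the adjusted p was 0.096. The study counted changed genes at a looser limit than 0.05, which 0.096 would meet, but on filtered and floored values. Its ontology analysis used 0.05. Under the unequal-variance test 3408 genes were called at 0.05 in place of 9273.

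Tfpi2 encodes a related Kunitz-type inhibitor that is secreted into the extracellular matrix and acts on plasmin and other proteases (ENSMUSG00000029664, chr6:3962595-3988919). It held 6.59, 5.93 and 5.40 RPKM at PND2 and 1.24, 1.42 and 0.949 at 4 months. The ages stood well apart, and by gene RPKM Tfpi2 was the lowest of the 9 genes at both, although at PND2 its values overlapped those of F3. By the median over its exons at PND2, 7.99, 8.84 and 8.14 RPKM, Tfpi2 overlapped with F3 and with Plau. Its mean fell 4.96-fold, by 2.23 ± 0.21 on the log2 scale (SE, 95% interval -2.73 to -1.73, limma adjusted p = 0.000398). The adult values rest on 48 to 81 reads per library, the fewest behind any of the 9 genes, and the newborn values on 276 to 449.

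For Tfpi2, 10 of 13 listed exons were tested and 6 of them fell, while the log2 fold change of all 10 was below 0. The 3 exons not tested lie upstream of the exon at chr6:3968237-3968376, and each held 0 reads in every library, where a count of 0 allows up to 3. The exon at chr6:3968237-3968376 held 20, 21 and 20 reads at PND2 and 6, 7 and 0 at 4 months. The Tfpi2 window printed above surrounds the start of that exon.

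Tissue factor and its inhibitor thus exchanged places on the RPKM scale. The ratio of F3 to Tfpi was 0.214, 0.155 and 0.173 in the newborn libraries and 3.39, 1.89 and 3.01 in the adult libraries. The ratio was below 1 in every newborn library and above 1 in every adult library. It rose 15.0-fold, a log2 difference of 3.90 (exact two-sided permutation test over the 6 libraries, p = 0.1). With 3 libraries against 3, 0.1 is the smallest p the design allows, and 10 ratios between partner genes were computed in all, of which 8 are given here.

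Exons of Tfpi did not all fall by the same amount. Tfpi is made in a long, secreted form and in shorter forms, and the GENCODE annotation of the same build separates them by their last exons. The exons and values in this and the next paragraph were chosen after they were seen and carry no test of their differences. The exon at chr2:84434242-84434421, found only in long transcripts, held 90.5, 89.0 and 71.4 RPKM at PND2 and 20.4, 35.9 and 20.5 at 4 months, and its log2 fold change was -1.75. An exon at chr2:84453800-84453997, which both kinds of transcript contain, had a log2 fold change of -1.68. The last exon of short transcripts, at chr2:84440140-84442925, held 24.1, 23.2 and 25.3 RPKM at PND2 and 12.6, 16.6 and 10.5 at 4 months, and its log2 fold change was -0.89. The short-form exon therefore fell less in these libraries than the long-form exon. Its ratio to the long-form exon was 0.266, 0.260 and 0.355 at PND2 and 0.621, 0.461 and 0.509 at 4 months, with no overlap of the ages. The ratio of the long-form exon to the shared exon overlapped between the ages, at 0.717 to 0.844 and 0.623 to 0.905. Of the 28 Tfpi exons, 26 fell in the test over all exons and the log2 fold changes of all 28 were below 0.

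The starts of Tfpi also differed. The downstream first exon, at chr2:84473943-84474174, held 97, 95 and 55 reads at PND2 and 19, 5 and 11 at 4 months, which is 10.7, 13.4 and 8.10 RPKM against 2.19, 0.905 and 1.64. The upstream first exon, at chr2:84476691-84476763, held 17.6, 23.8 and 22.9 RPKM at PND2 and 7.70, 21.3 and 8.52 at 4 months, where its value in replicate 2 reached the newborn range. The log2 fold changes were -2.74 for the downstream exon and -0.92 for the upstream exon, the second of which did not pass the test. A shorter listing of the upstream exon, at chr2:84476691-84476748, was called at -1.01 (limma adjusted p = 0.0492), so the call at this start depends on which of the overlapping listings is read. Replicate 2 of the 4-month libraries also held the most adipocyte transcripts. The summed RPKM of the 6 adipocyte markers was 1275, of which Cfd held 954.7, against a lowest adult sum of 290.5. The same library held the highest adult sum of the 10 cardiomyocyte markers, 13218 against a lowest of 7702. It also held the highest adult Xist, 109.9 RPKM, and 0 RPKM of the Y-linked gene Ddx3y. The parts of fat, heart muscle and sex in the upstream start were not tested. Another listed first exon, at chr2:84476741-84476775, overlaps the upstream exon and begins farther upstream. It held 28 reads in replicate 2 of the 4-month libraries and 3 and 1 in the other adult libraries.

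**Figure D2:**
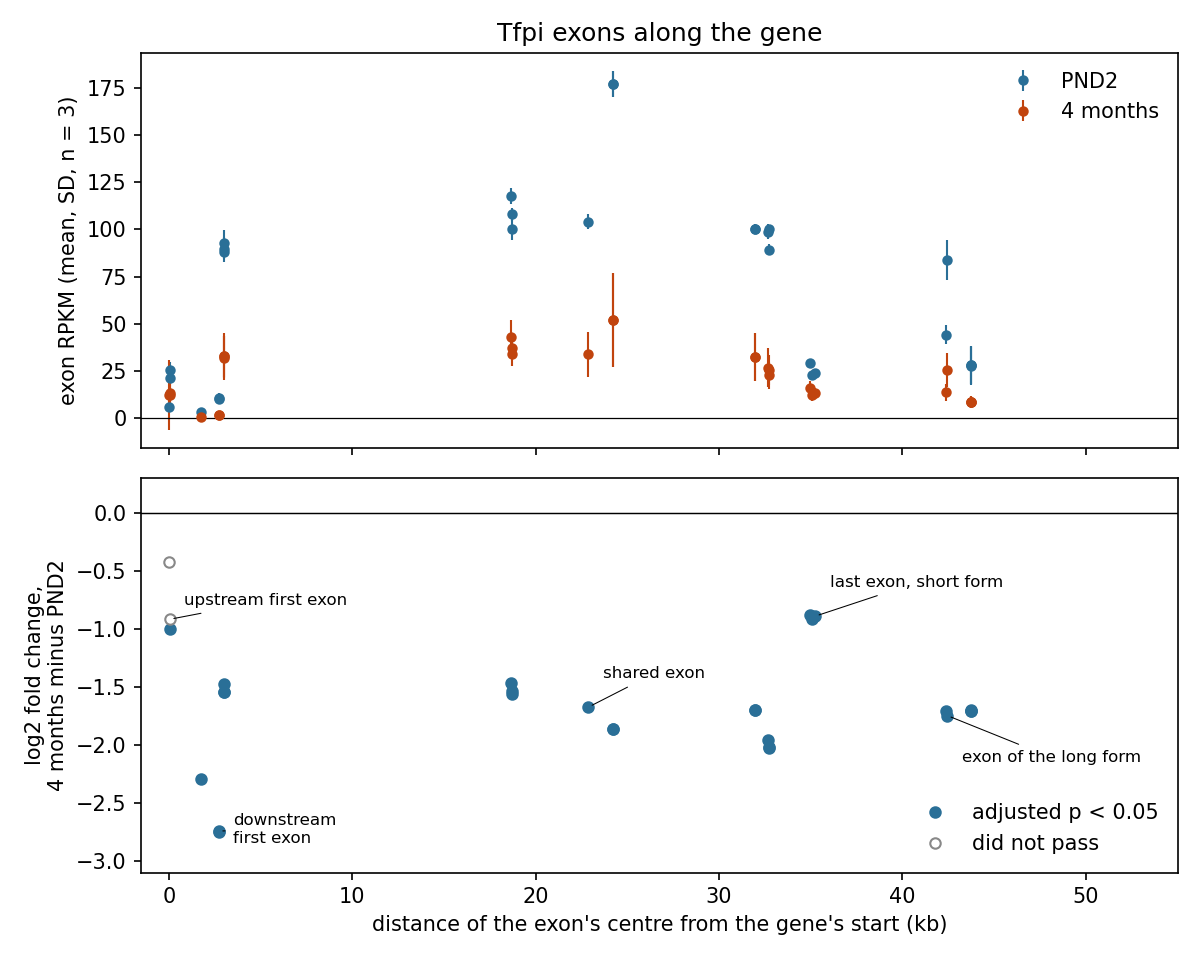
Tfpi exons by distance from the gene's start in kb, with mean exon RPKM ± SD of the 3 libraries of each age above and the log2 fold change (4 months minus PND2) below, filled where adjusted p was under 0.05. The last exon of the short form, at -0.89, lies above the exon of the long form, at -1.75, and the downstream first exon lies at -2.74.

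Thbd and Procr encode the receptors that activate protein C on the endothelium. Thbd, the gene for thrombomodulin, which has a single exon (ENSMUSG00000074743, chr2:148404466-148408188), held 52.3, 37.9 and 47.7 RPKM at PND2. At 4 months it held 84.6, 84.3 and 84.0, so that the adult libraries were nearly equal and all above the newborn ones. Its mean rose 1.83-fold, a log2 fold change of 0.89 ± 0.13 (SE, 95% interval 0.59 to 1.18, limma adjusted p = 0.00207). The unequal-variance test gave an adjusted p of 0.0902. By RPKM over the whole annotated exonic length, Thbd came second after Plat at both ages and did not overlap with either neighbour. By the median over a gene's exons, Tfpi at PND2, with 86.2, 90.7 and 78.3 RPKM, lay above Thbd. Vwf at PND2, with 45.4, 36.6 and 58.9 by that measure, overlapped with Thbd.

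Procr, the gene for the endothelial protein C receptor (ENSMUSG00000027611, chr2:155751117-155755471), held 26.1, 24.5 and 29.2 RPKM at PND2 and 13.6, 15.5 and 25.2 at 4 months. Replicate 3 of the 4-month libraries lay inside the newborn range, so the ages overlapped. The log2 fold change was -0.60 ± 0.22 (SE, 95% interval -1.12 to -0.08, limma adjusted p = 0.0741), and 0 of its 11 tested exons were called by limma, although the log2 fold changes of all 11 were below 0 and 7 had an unadjusted p under 0.05. Without replicate 3 of the 4-month libraries the log2 fold change was -0.86 (adjusted p = 0.00772), and with voom on recovered reads it was -0.61 (adjusted p = 0.0435).

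Thbd and Procr, partners in one pathway, thus differed in course. The ratio of Thbd to Procr was 2.00, 1.55 and 1.64 at PND2 and 6.21, 5.43 and 3.33 at 4 months. Every adult ratio exceeded every newborn ratio, and the ratio rose 2.81-fold (exact permutation test, two-sided, p = 0.1, the smallest possible).

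Vwf encodes von Willebrand factor, which endothelial cells store and release to bind platelets (ENSMUSG00000001930, chr6:125546774-125686679). Its libraries held 27.8, 24.0 and 36.2 RPKM at PND2 and 20.8, 19.1 and 13.5 at 4 months. The ages did not overlap, though the gap between the lowest newborn and the highest adult library was small beside the spread within each age. Vwf fell 1.65-fold, with a log2 fold change of -0.72 ± 0.21 (SE, 95% interval -1.21 to -0.23, limma adjusted p = 0.0319). All 116 tested exons had log2 fold changes below 0, from -1.27 to -0.40. Of them 41 were called, beside 23.1% of all exons tested. The gene's call ended when any 1 of 4 libraries was left out, with adjusted p = 0.063 without PND2 replicate 1, 0.0975 without PND2 replicate 3, 0.0563 without 4 months replicate 2 and 0.0871 without 4 months replicate 3.

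Plat, Plau and Plaur make up the activating side of fibrinolysis. Plat, the gene for tissue plasminogen activator (ENSMUSG00000031538, chr8:22757744-22782847), had the highest level of the 9 genes at both ages by RPKM over the whole annotated exonic length. By the median over its exons at PND2, 100.6, 86.7 and 70.8 RPKM, it overlapped with Tfpi. It held 98.7, 80.0 and 65.2 RPKM at PND2 and 115, 104 and 116 at 4 months. The adult libraries all lay above the newborn ones, and the newborn ones were the more spread out. Plat rose 1.37-fold, a log2 fold change of 0.47 ± 0.15 (SE, 95% interval 0.12 to 0.83, limma adjusted p = 0.0464), close to the threshold. All 14 exons had log2 fold changes above 0, from 0.33 to 0.72. The 4 that were called are the 4 nearest the gene's start, beside 23.1% called of all exons tested. The gene's call was lost without any library other than PND2 replicate 1, with adjusted p = 0.103 without PND2 replicate 2, 0.125 without PND2 replicate 3, 0.108 without 4 months replicate 1, 0.071 without 4 months replicate 2 and 0.129 without 4 months replicate 3.

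Plau encodes urokinase, the other plasminogen activator (ENSMUSG00000021822, chr14:20836662-20843388), and held 10.6, 7.41 and 6.71 RPKM at PND2 and 6.57, 6.58 and 6.31 at 4 months. The newborn values lay just above the adult ones, with a log2 fold change of -0.31 ± 0.19 (SE, 95% interval -0.75 to 0.13, limma adjusted p = 0.238). Of its 11 exons 1 was called, a piece of 31 bases that held 0, 0 and 2 reads at PND2 and 13, 6 and 5 at 4 months.

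Plaur, the gene for the urokinase receptor (ENSMUSG00000046223, chr7:24462484-24475968), held 9.06, 9.20 and 7.52 RPKM at PND2 and 7.44, 5.76 and 8.45 at 4 months. The ages overlapped, with a log2 fold change of -0.26 ± 0.18 (SE, 95% interval -0.68 to 0.16, limma adjusted p = 0.295). Of 24 tested exons 2 fell, both covering chr7:24472573-24472707, with a log2 fold change of -0.84 and 85 to 121 reads at PND2 against 38 to 69 at 4 months. The ratio of Plau to Plaur was 0.805 to 1.17 at PND2 and 0.747 to 1.14 at 4 months, and the log2 difference of -0.05 did not pass the test (exact permutation test, p = 0.7).

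Regulators of the plasminogen system rose for 5 of the 10 tested and fell for 1, beside 14.7% and 21.1% of all genes tested. Serpine2, the gene for protease nexin-1, which blocks thrombin as well as the activators, held 16.9, 19.7 and 13.8 RPKM at PND2 and 95.6, 92.8 and 117 at 4 months. Every adult library lay above every newborn library. Serpine2 rose by log2 2.60 ± 0.16 (SE, limma adjusted p = 6.41e-05). Serpini1, for neuroserpin, an inhibitor of tissue plasminogen activator, rose 3.73-fold from 3.52 to 13.1 RPKM, and Lrp1, the receptor that clears activator and inhibitor complexes, rose 3.18-fold from 55.7 to 177 RPKM.

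Immediate early genes, which include those for the AP-1 proteins, also moved between the ages, where 35.8% of all genes tested were called. Of 10 on that list 8 rose and 1 fell, Fos among them from 6.84 to 56.4 RPKM and Atf3 from 10.7 to 157, with a summed RPKM of 227.4 to 251.8 at PND2 and 686.4 to 968.2 at 4 months. Their part in the level of F3 was not tested.

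**Figure D3:**
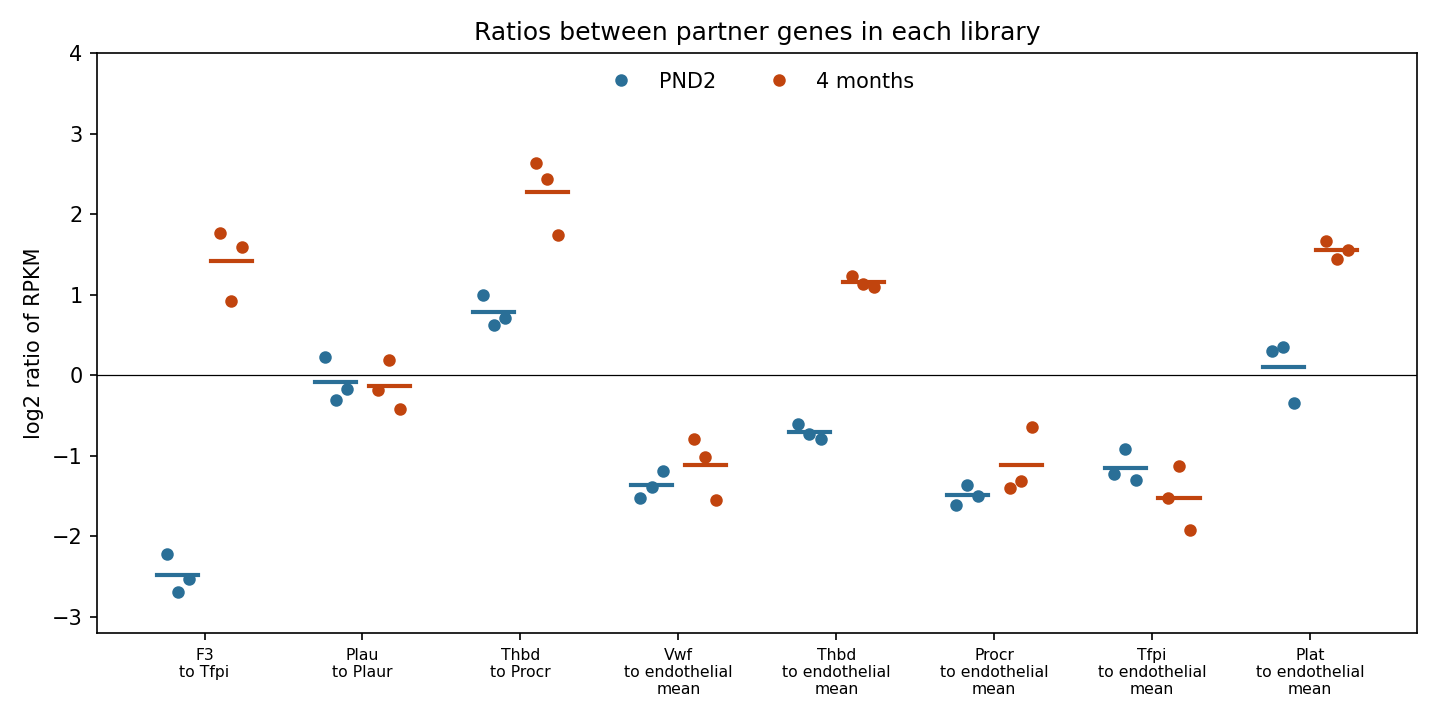
Log2 ratios of RPKM between partner genes in each library, with PND2 in blue, 4 months in red and a bar at the mean. The ratio of F3 to Tfpi lies below 0 in every newborn and above 0 in every adult library, and the ratios of Vwf, Procr and Tfpi to the endothelial mean overlap between the ages.

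Several of the 9 genes are best known from endothelial cells, so their levels were set against endothelial markers. Of all genes tested, 21.1% fell and 14.7% rose. Of 19 endothelial markers 14 fell and none rose, with a median log2 fold change of -0.91 and a summed RPKM of 1008 to 1382 at PND2 and 621.1 to 634.5 at 4 months. Cdh5, for VE-cadherin, fell from 97.5 ± 16.7 to 35.2 ± 4.50 RPKM (SD, n = 3, limma adjusted p = 0.000574), and Pecam1 fell from 114 ± 23.3 to 80.2 ± 5.61 (adjusted p = 0.0439). The Pecam1 call was lost under median scaling (adjusted p = 0.131) and without any library other than PND2 replicate 2, with adjusted p from 0.0821 without 4 months replicate 3 to 0.119 without PND2 replicate 3.

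Relative to the geometric mean of Pecam1, Cdh5, Tie1 and Erg, the endothelial mean, 3 of 5 genes overlapped between the ages and 2 did not. The ratio of Vwf to that mean was 0.348, 0.383 and 0.439 at PND2 and 0.578, 0.496 and 0.343 at 4 months, and the ages overlapped (exact permutation test, p = 0.4). The same held for Procr, at 0.328 to 0.390 and 0.379 to 0.641 (p = 0.2 by the exact test), and for Tfpi, at 0.405 to 0.528 and 0.264 to 0.460 (p = 0.3 by the exact test). The ratio of Thbd to the endothelial mean was 0.578 to 0.655 at PND2 and 2.14 to 2.35 at 4 months, a 3.64-fold difference without overlap. The ratio of Plat went from 0.790 to 1.28 at PND2 up to 2.71 to 3.18 at 4 months, a 2.73-fold difference also without overlap (exact permutation test, p = 0.1 for each). Which cells made any of these transcripts was not measured.

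Flow-responsive factors and markers of other cells moved between the ages as well, beside 35.8% of all genes tested that were called. Klf2 and Klf4, transcription factors that respond to flow and are known to act on the Thbd gene in endothelium, rose by log2 0.74 and 0.95 (limma adjusted p = 0.00879 and 0.00528), from 63.0 to 107 and from 31.4 to 60.4 RPKM. Macrophage markers rose for 8 of 10 genes, smooth muscle markers for 6 of 6 and adipocyte markers for 6 of 6, with a summed adipocyte RPKM of 0.150 to 0.377 at PND2. Among platelet and megakaryocyte markers limma called 0 of the 7 tested (2 had an unadjusted p under 0.05, and voom called 1), and Pf4 held 56.6 and 58.8 RPKM at the 2 ages. Neutrophil markers fell for all 5 tested genes of 8, mast cell markers for 4 of 6, and limma called 0 of 5 tested erythroid markers (1 had an unadjusted p under 0.05, and voom called 0). Fibroblast markers split into 3 that rose and 4 that fell, Schwann cell and melanocyte markers into 1 and 2, and cardiomyocyte markers into 1 and 5. The part of these cells in the levels of the 9 genes was not tested, nor was that of Klf2 and Klf4 in the level of Thbd.

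The pathway around these genes was read from 65 other hemostasis genes in 7 lists, of which 46 could be tested. Of those 46, 14 rose, 9 fell and 23 did not pass the test, against the background of 35.8% called, with a median log2 fold change of 0.02. With each library scaled by its median the counts were 16 and 6.

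Of 16 coagulation factor genes 12 fell below the filter on low values, the highest of them Kng2 with at most 59 reads and 0.812 RPKM, and 5 held at most 3 reads in every library, as did 2 of the 9 anticoagulant genes, including Proc, the gene for protein C, which held 0 reads in every library. Plg, the gene for plasminogen, the substrate of Plat and Plau, held at most 14 reads in any library. F13a1, for the subunit of the fibrin-crosslinking factor XIII that macrophages make, was the 1 factor gene that rose, from 22.8 ± 3.27 to 59.1 ± 5.87 RPKM (SD, n = 3, limma adjusted p = 0.000435). The summed macrophage markers went from at most 371.6 to at least 1045 RPKM. Lyz2, the highest of them in the adult valve, went from 121 to 595 RPKM, and 8 of the 10 were called as higher. The part of macrophages in the level of F13a1 was not tested.

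Among the anticoagulant genes, Pros1, for protein S, the cofactor of both activated protein C and the Tfpi product, rose 1.55-fold (limma adjusted p = 0.00242), from a mean of 30.2 to one of 47.0 RPKM. Hs3st1, for an enzyme that makes the antithrombin-binding form of heparan sulfate, rose 1.42-fold from 8.40 RPKM (adjusted p = 0.0326), a call lost without PND2 replicate 2 or 3 or 4 months replicate 1 or 3 (adjusted p = 0.0888 to 0.111). Proz also rose, at no more than 1.17 RPKM. Anxa2, for annexin A2, which binds plasminogen and Plat product at the cell surface, held 298.2 to 313.1 RPKM at PND2 and 219.3 to 273.5 at 4 months and did not pass the test (log2 fold change -0.29, adjusted p = 0.0778). Eno1, which encodes enolase, also a plasminogen receptor, fell 1.58-fold, but it has a near-identical copy with which reads may be shared.

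Of the 4 receptors that respond to clotting proteases 2 fell, beside 21.1% of all genes tested. F2r, for the thrombin receptor PAR1, held 132.4, 180.0 and 163.6 RPKM at PND2 and 81.0, 86.4 and 92.0 at 4 months, a 1.84-fold fall (limma adjusted p = 0.00242). F2rl1, for PAR2, which factor VIIa and tissue factor can activate, fell 4.64-fold from 9.09 to 1.96 RPKM (adjusted p = 0.000326), opposite to F3. F2rl2 and F2rl3 stayed at or below 1.07 RPKM and did not pass the test.

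Of the 12 partners of Vwf in storage and platelet binding, 2 rose and 1 fell, a smaller share than the 35.8% called over all genes tested. Edn1, for endothelin-1, a peptide that endothelial cells can store with von Willebrand factor, fell 3.92-fold from 34.3 to 8.77 RPKM (limma adjusted p = 0.00023). Itgb3, the beta subunit of an integrin that binds von Willebrand factor and fibrinogen, rose 1.99-fold, and Rab27a, for a GTPase of the storage granules, rose 1.58-fold. Rab27a shares 149 exonic bases with Gm27186, a processed pseudogene on the same strand, so reads may be shared. Adamts13, for the protease that cleaves von Willebrand factor, held 0.253 to 0.507 RPKM and did not pass the test.

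The 4 genes by which endothelium restrains platelets were all called, 2 in each direction, beside 35.8% of all genes tested. Ptgis, for prostacyclin synthase, rose 2.01-fold from 157 to 316 RPKM, and Entpd1, for CD39, which removes ATP and ADP, rose 1.81-fold from 40.5 to 73.5. Nos3, for endothelial nitric oxide synthase, fell 1.61-fold from 63.3 to 39.3 RPKM, and Nt5e, for CD73, which turns AMP into adenosine, fell 2.27-fold from 6.07 to 2.68. Nos3 and Ptgis, like Anxa2 above, share exonic bases with genes on the opposite strand. Whether reads were counted by strand is not given in the sources used here. Of the genes for the vitamin K cycle and for factor secretion, Nqo1 rose 1.52-fold, and Lman1, Mcfd2 and Vkorc1l1 fell 1.65-fold, 1.20-fold and 1.31-fold. The call of Mcfd2 was lost without any 1 of the 6 libraries (adjusted p = 0.0513 to 0.11), that of Nt5e without any library other than PND2 replicate 2 (0.0547 to 0.115), and that of Vkorc1l1 without PND2 replicate 2 or 3 or 4 months replicate 1 or 3 (0.0682 to 0.0839). These 3 genes also lost their call under median scaling, with adjusted p = 0.236, 0.0802 and 0.0943.

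**Figure D4:**
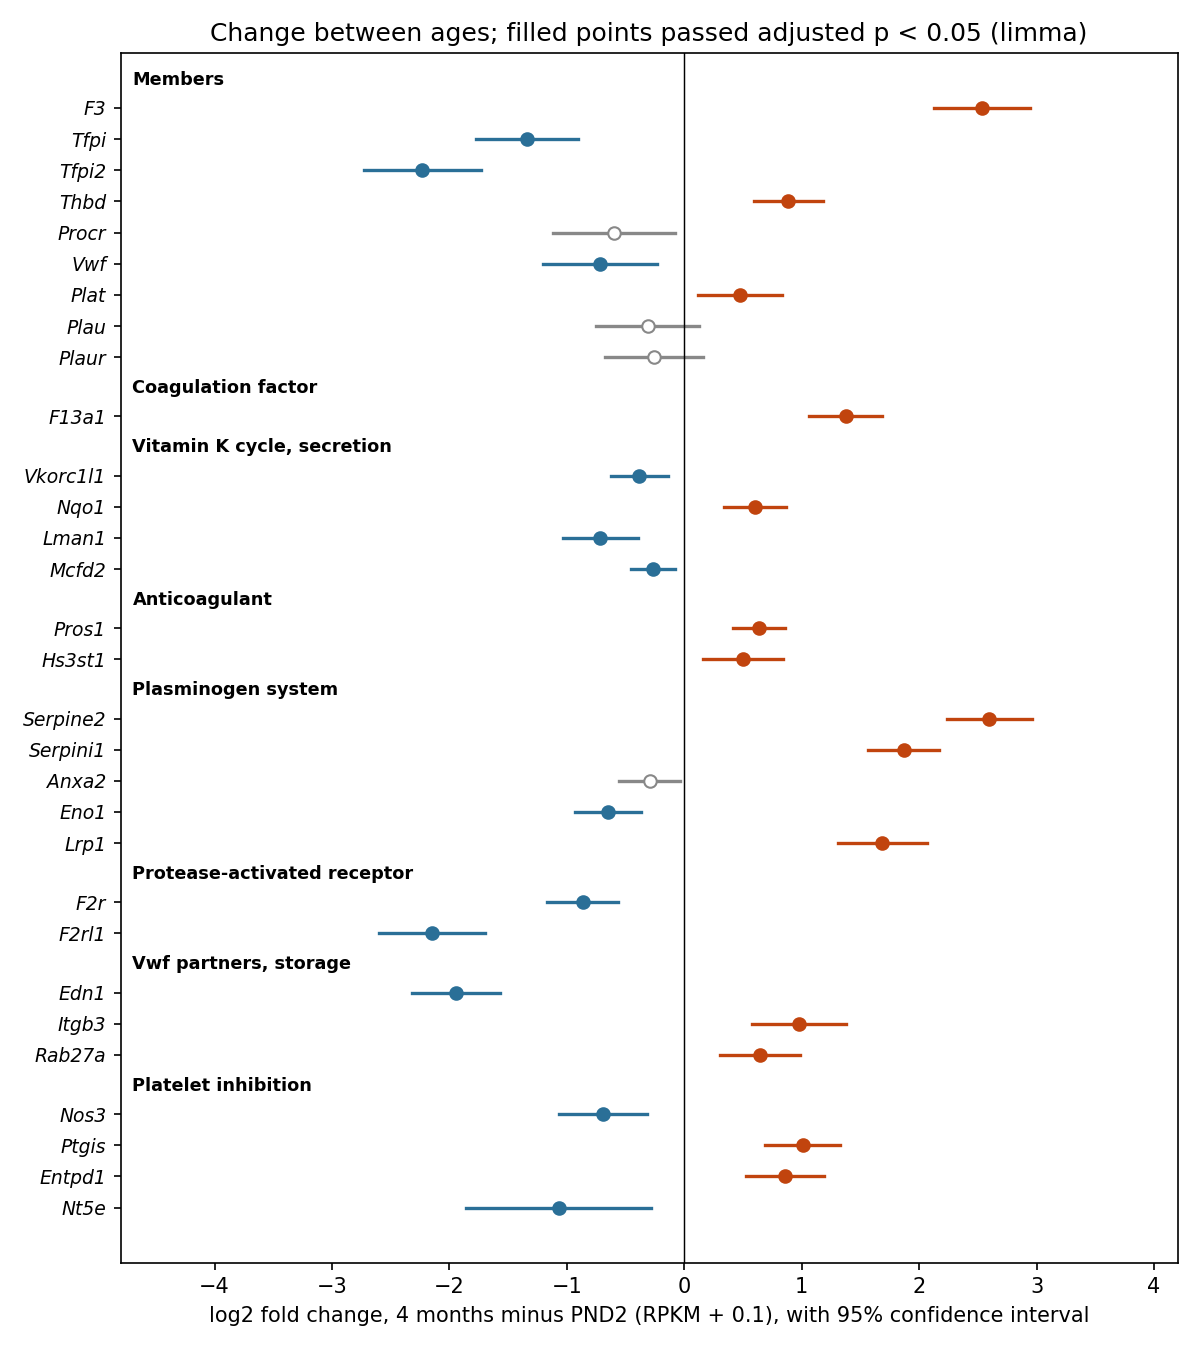
Log2 fold changes (4 months minus PND2, on RPKM + 0.1) with 95% intervals for the 9 genes and for 21 other hemostasis genes, filled where the adjusted p was under 0.05. F3 at 2.54 and Serpine2 at 2.60 lie farthest to the right, and Tfpi2 at -2.23 and F2rl1 at -2.15 farthest to the left.

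Genes with the most similar course were sought among 14207 tested genes of at least 5 RPKM on average, by Pearson's r over the 6 libraries, as a description in which all libraries and the age difference are shared. For F3 the closest gene was Thrb (r = 0.999), for Tfpi it was Psmd12 (r = 0.999), and for Tfpi2 it was Rbmx (r = 0.999). The closest to Thbd was Itgam, an integrin subunit of myeloid cells (r = 0.998), to Vwf it was Map3k1 (r = 0.992) and to Plat it was Suox (r = 0.991). For Procr, Plau and Plaur, which did not pass the test, the closest were Gm11246 (r = 0.994), Gm17066 (r = 0.989) and Slc26a11 (r = 0.987).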

How the data were processed

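RNA from aortic valves of PND2 and 4-month-old mice was made into libraries with a stranded TruSeq kit and sequenced as paired 50-nucleotide reads. Reads were trimmed, filtered and mapped by the authors on mm10 using TopHat (TopHat2 2.1.0 and R 3.2.2 in the submitters' processing notes), and easyRNASeq was used to count them over genes and exons of Ensembl. RPKM values as deposited, one set for genes and one for exons, carry neither the read minimum nor the floor that the authors later applied. Whole reads were recovered from RPKM, exonic length and library total. Of 169855 gene values above 0, 100% were whole within 0.01 read. Whether a total counts reads or pairs is not given in the sources used here.

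In R 4.3.3, limma 3.58.1 was fitted to log2(RPKM + 0.1) with a trended eBayes step for genes of at least 0.1 RPKM and exons of at least 1 RPKM in 3 libraries, with Benjamini-Hochberg adjustment over all of them. Ratios were compared with exact permutation tests. Tables were made with Python 3.11.15, numpy 2.4.6 and pandas 2.3.3, figures with matplotlib 3.10.9, and R read tables with data.table (version 1.17.8). The fit was tested on simulated data. Named genes are the 9 chosen genes, list genes with a mean of at least 5 RPKM at either age that were called, and Plg and Anxa2 with a few markers in any case. Other names were added after their values were seen, and 1 list gene with its ratios is counted in its list but not reported here. The chosen genes and the lists were set with earlier results of these data known. p-values measure the spread between pooled libraries, and depth limits cover counting error only. Promoter sequences are from RefSeq on GRCm38, the same build as mm10.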

Additional observations from a re-analysis of the deposited data

How the results depend on the processing

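The direction of each of the 9 genes held in all 18 alternatives, and F3 and Tfpi2 kept their call in each. The unequal-variance test was the strictest at the limit of 0.05. It called 2 of the 9 genes in place of 6 (3408 of all genes in place of 9273) and 8 of the other hemostasis genes in place of 23. At that limit it ended the calls of Thbd (0.89, adjusted p = 0.0902) and Tfpi (-1.34, adjusted p = 0.096). Vwf also lost its call at an unchanged log2 fold change of -0.72 with that test, without the trend, with values floored at 10 reads and with the replicate block, and at -0.66 with log2 Xist as a covariate, an alternative chosen after the data were seen. Plat lost its call at 0.47 in those first 4 settings, without a filter and with a pseudocount of 0.01, and at 0.41 with Xist. Its adjusted p ran from 0.0114 to 0.213 over all alternatives, and that of Vwf from 0.0153 to 0.135. Procr gained a call at -0.61 with voom on recovered reads. Leaving out 1 library at a time moved the log2 fold change of Vwf between -0.85 and -0.54, of Procr between -0.86 and -0.42 and of Plat between 0.32 and 0.62, and the number of the 9 genes called between 4 and 5. Other log2 fold changes in those fits ranged from 2.41 to 2.68 for F3, -1.55 to -1.17 for Tfpi, -2.35 to -2.08 for Tfpi2 and 0.75 to 0.99 for Thbd.

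Same-numbered libraries of the ages did not deviate together (correlations of 0.04, -0.06 and -0.16). Libraries of unlike number gave -0.18 to 0.23. With 3 libraries per age these correlations cannot exclude a pairing by number, which the labels do not state. With the replicate block, 4 of the 9 genes, 18 other hemostasis genes and 55 of their exons were called, in place of 6, 23 and 94. Exon calls ranged from 45, without PND2 replicate 3, to 79 when 1 library was left out. Of the 20 other named genes that were called, 8 kept their call in all 18 alternatives and 16 in all but the unequal-variance test, and none turned direction. With a pseudocount of 0.1 the ratios moved by less than the spread between libraries. So did the ratios to the endothelial mean when all endothelial markers were used. Leaving out 1 of 3 libraries cannot move the mean of an age by that spread, so those alternatives could not have shown a move.

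No test separates the ages from the cells that were dissected with each of them, and 3 pools per age set the precision. Counting error matters for Tfpi2 at 4 months and for single exons.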
